A study of Mus musculus with 32 samples.

Results

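Firre is an X-linked long non-coding RNA gene of the mouse, and it is described here alone, as 1 of 26440 genes in the nascent RNA table, 13888 in the table of mature RNA from undifferentiated cells and 15012 in that from differentiating cells. It was chosen by its measured B6 shares before treatment, which were near equality in nascent RNA and far from it in mature RNA, so that difference is given as a description and is not tested. Firre RNA stays in the nucleus near its own locus. It is built from many copies of a tandem repeat, and in mouse cells that repeat binds the nuclear matrix protein hnRNPU. The locus also holds arrays of sites for the looping protein CTCF, has been described as a contact point of the inactive X together with the Dxz4 repeat, and has been listed among genes that escape X inactivation.

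All 32 libraries came from TX1072, a single female embryonic stem cell line from a cross of C57BL/6 (B6) and CAST/EiJ (Cast) mice. In every group Xist on the B6 X chromosome is driven by a doxycycline-inducible promoter and Rosa26 holds rtTA, so that 1 µg/ml doxycycline switches on Xist, the RNA that silences the chromosome it is made from, on the B6 X alone. Undifferentiated cells grew on gelatin in serum, LIF and inhibitors of Gsk3 and MEK. Nascent RNA was measured in them by PRO-seq, a nuclear run-on that marks engaged polymerase with a biotinylated nucleotide, in pairs of libraries (0 and 24 h) or single libraries (0.5, 1, 2, 4, 8 and 12 h). Polyadenylated (mature) RNA was sequenced in 2 libraries per time at 0, 2, 4, 8, 12 and 24 h in undifferentiated cells and at 0, 8, 16, 24 and 48 h in cells labelled as differentiating. No untreated libraries were taken after 0 h, so doxycycline and time in culture cannot be told apart. In the differentiating course every library after 0 h was treated, so doxycycline and differentiation cannot be told apart within it. No label says that replicates were separate cultures, so p-values measure only the spread between these libraries, which may be technical. In mature RNA a lower level in bulk can mean fewer expressing cells or less RNA per cell, and these cannot be told apart.

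Allele-assigned reads numbered 3041199 to 6443286 per PRO-seq library, of which 621 to 2534 lay in Firre. The mature RNA tables hold no counts, only RPKM values (reads scaled by gene length and library depth). With annotated exon lengths, the step size of these values put their depth at about 55353078 to 98310641 reads. With the 8247 bases of annotated Firre exons as its length, Firre had about 544 to 7295 reads, allele-assigned or not. The length behind its deposited RPKM was not checked. Xist was at 0.16 RPKM or below in the mean of each group at 0 h and at 28.5 to 45.5 RPKM at 24 h. The 10 pluripotency markers summed to 1907 to 2237 RPKM in undifferentiated mature RNA throughout, and in differentiating cells they went from 2050 to 2085 RPKM at 0 h to 788 to 830 at 48 h, while Dnmt3b, a marker of primed cells, went from 51.0 to 271 RPKM. Of 5 primitive endoderm markers, those measured in mature RNA were under 1 RPKM in the mean of the groups at 0, 24 and 48 h. Of the fibroblast markers, Col1a1 was at 0.22 to 1.44 RPKM in mature RNA, while Fn1, which stem cells also express, led that list. At 0 h in undifferentiated mature RNA the measured trophectoderm markers summed to 7.01 to 11.6 RPKM, led by Cdx2. The measured mesendoderm markers summed to 14.9 to 18.7 RPKM there, led by T. Sox1, the only neuroectoderm marker measured there, was at 0.36 to 0.58 RPKM. The 2 h replicate 1 library of undifferentiated mature RNA stood apart, with RPKM values summing to 362905 against a median of 264675. Leaving it out changed no call for Firre in mature B6:Cast or total level from 4 h on, or in the differences between the mature courses.

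The counted Firre interval lies at chrX:50555744-50635321 on the minus strand of mm10, and GENCODE annotates 10 transcripts there. The longest has 20 exons and 5555 bases, and 11 of its exons hold the same repeat unit. The 7 exons that are whole copies of it are 154 or 155 bases long, and any pair of them is 95.5 to 98.7% identical (median 96.8%). Of the 5506 windows of 50 bases in this transcript, 15.0% occur more than once in it. The median over 477 X-linked genes with a transcript of at least 2000 bases was 0%, and 1 other gene reached the value of Firre. The sources used here do not say how reads that match several places were counted or how reads were given to alleles. The 4 copies below show how little separates one exon from another. They are given 5′ to 3′ as transcribed, in the mm10 (B6) sequence, and capitals mark the bases that differ from exon 11 in an alignment; a base missing from a copy is not marked.
Exon 11, chrX:50595461-50595615: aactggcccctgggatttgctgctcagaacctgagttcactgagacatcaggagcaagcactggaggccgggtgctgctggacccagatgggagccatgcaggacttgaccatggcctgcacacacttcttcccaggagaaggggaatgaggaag
Exon 4, chrX:50615361-50615515: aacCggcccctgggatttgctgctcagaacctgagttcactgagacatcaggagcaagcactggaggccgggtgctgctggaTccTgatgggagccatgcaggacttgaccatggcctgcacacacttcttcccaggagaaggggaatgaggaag
Exon 10, chrX:50598134-50598288: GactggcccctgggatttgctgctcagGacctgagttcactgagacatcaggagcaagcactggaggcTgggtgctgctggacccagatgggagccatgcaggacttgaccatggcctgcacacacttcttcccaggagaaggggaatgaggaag
Exon 16, chrX:50577871-50578024: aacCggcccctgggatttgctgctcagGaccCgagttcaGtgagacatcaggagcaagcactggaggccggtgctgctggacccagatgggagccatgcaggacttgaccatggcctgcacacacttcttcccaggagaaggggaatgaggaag

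The copies differ from exon 11 at 3 or 4 marked bases each, and exon 16 is 1 base shorter. RefSeq also places the non-coding gene Gm35612, known as Crossfirre, across 6855 bases of the Firre interval. It was not analysed here, and the sources used here do not say whether counting used strand.

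Before doxycycline the nascent RNA of Firre was assigned about equally to both alleles. The B6 allele gave 752 of 1534 allele-assigned reads in replicate A (49.0%, 95% Wilson interval 46.5 to 51.5) and 1233 of 2534 in replicate B (48.7%, interval 46.7 to 50.6). Such intervals cover counting error only. The median X-linked gene was at 49.7%.

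Mature Firre RNA at the same time was assigned mostly to B6. Its B6 share was 83.9% and 88.7% in the 2 libraries of the undifferentiated course, against an X-linked median of 50.5%. In the 2 of the differentiating course it was 85.5% and 85.1%, against 49.9%. These 2 are the untreated start of that course. Their pluripotency markers summed to 2050 to 2085 RPKM, against 1933 to 1976 in the undifferentiated pair. They are not taken here as differentiated cells. All 4 mature libraries lay far above both nascent ones, and the 2 mature courses did not differ beyond the spread of their libraries. The odds of B6 against Cast were 0.955 in nascent RNA and 6.31 in mature RNA of the undifferentiated course, a ratio of 6.61. For the start of the differentiating course the ratio was 6.08. Among 239 X-linked genes measured in both tables the absolute difference between mature and nascent share at 0 h had a median of 5.63 points and a 90th percentile of 16.1. Firre, at 37.5 points, ranked 3. Whether the mature share of Firre reflects the origin of its RNA or the way reads were given to alleles was not tested.

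The other genes with large differences lay on both sides. Apoo, which encodes a subunit of the mitochondrial MICOS complex, was at 45.7% in nascent and 96.5% in mature RNA. Pgk1, the glycolytic enzyme phosphoglycerate kinase, was at 49.4% and 0.41%. It has processed pseudogenes elsewhere in the genome, and whether their reads were counted with it was not tested. Smim10l2a was at 22.9% and 57.8%, and the non-coding gene 1810030O07Rik at 50.4% and 84.96%. In all, 14 of the 239 genes differed by over 20 points, 10 of them with the higher share in mature RNA.

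**Figure D1:**
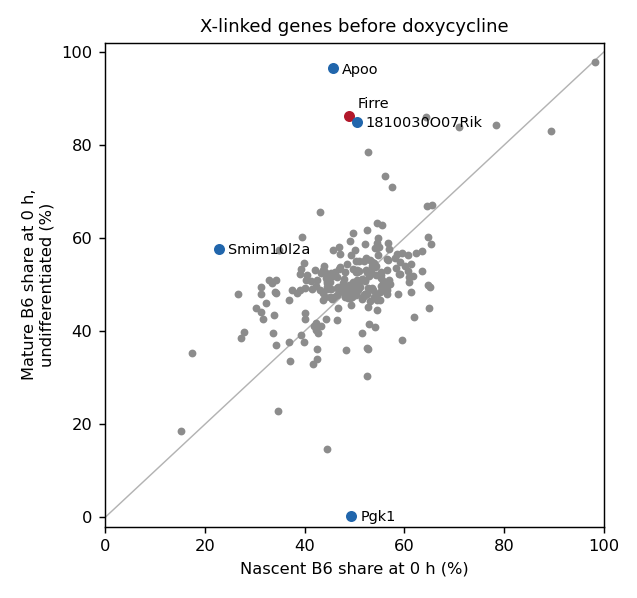
Mature against nascent B6 share in percent at 0 h for 239 X-linked genes, each point the mean of 2 libraries per assay, with the line of equal shares. Firre (red) stands 37.5 points above the line at a nascent share of 48.8%; the 4 other genes with the largest differences are in blue.

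After Xist was switched on, nascent Firre stayed close to equal for several hours and then lost its B6 reads. At 0.5, 1, 2, 4 and 8 h its B6 share was 52.1, 48.7, 47.9, 46.1 and 40.6%, in that order. The 12 h library had 157 B6 reads of 621 (25.3%, interval 22.02 to 28.8). The 24 h libraries had a share of 17.1% in replicate A (132 of 772 reads) and of 15.8% in replicate B. The 12 and 24 h libraries were the lowest, and none of the libraries up to 4 h was below the 46.1% of the 4 h library.

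The nascent B6:Cast ratio changed at 12 h by -1.495 on the log2 scale (SE 0.18, edgeR quasi-likelihood adjusted p = 5e-05), where 0.134% of all 13392 genes and 5.14% of X-linked genes were called lower. At 24 h the change was -2.29 (SE 0.14, adjusted p = 1.9e-12), a 4.88-fold lower ratio, with 0.806% of all genes and 30% of the 350 X-linked genes called lower. At 8 h it was -0.48 (SE 0.16, adjusted p = 0.62), with 0.0373% of all and 1.43% of X-linked genes called lower. DESeq2 gave the same 12 h change with an adjusted p of 1. Set against the X chromosome, Firre went from an average place to a low one. Its 8 h change was weaker than the X-linked median of -0.62, with 198 of 350 genes lower than Firre. At 12 h 82 genes were lower, and at 24 h 34 were, the X-linked medians being -0.87 and -1.14.

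**Figure D2:**
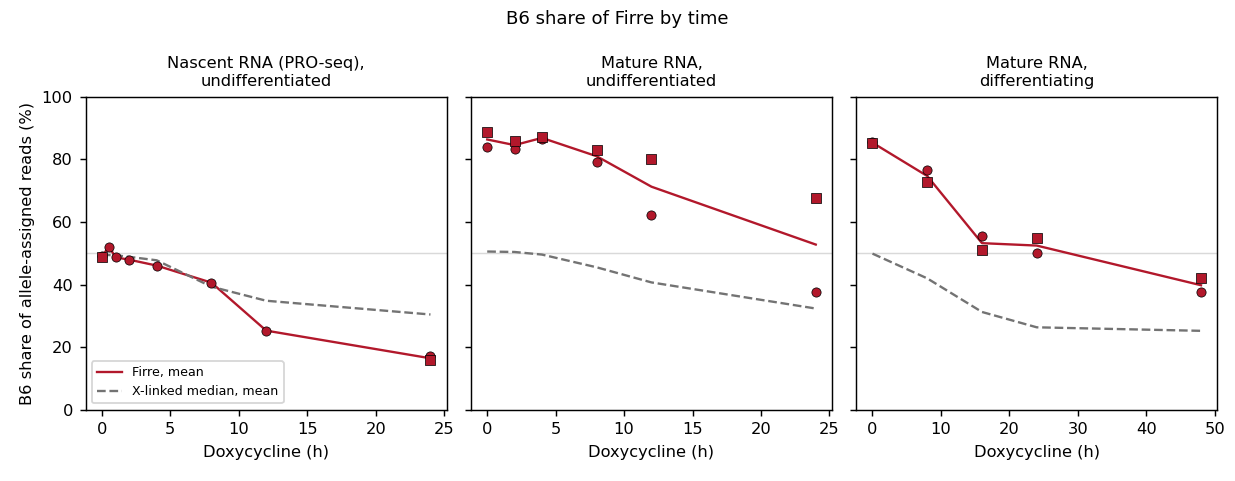
B6 share of Firre in percent of allele-assigned reads against hours of doxycycline in the 3 courses; points are libraries (circles replicate 1 or A, squares replicate 2 or B), the red line joins Firre means and the dashed line the means of the X-linked medians. Nascent Firre starts on the X-linked median and ends 14.0 points below it, while mature Firre stays above it at every time.

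The total level of nascent Firre was also lower late in the course. The 0 h libraries were at 24.1 and 26.6 RPKM, and the libraries of 0.5, 1, 2 and 4 h at 19.4, 21.4, 23.4 and 19.8 RPKM. Those of 8 and 12 h were at 12.6 and 11.9 RPKM, and those of 24 h at 11.9 and 12.98 RPKM. The 8, 12 and 24 h libraries did not overlap with the earlier ones. The difference in total count was -1.04 at 12 h (log2, SE 0.14, edgeR adjusted p = 0.082) and -0.71 at 24 h (SE 0.11, adjusted p = 0.13), and neither passed the threshold; at 24 h 0.00593% of 16870 genes were called lower. Both depended on the setting. The 12 h difference passed with DESeq2 (adjusted p = 0.012), without a filter on low counts (5.9e-07) and without 0 h replicate A (0.00031) or B (0.002), and the 24 h difference without the filter (2.8e-05) and without 0 h replicate A (0.0044) or B (0.0015). Without 24 h replicate A or B the adjusted p was 0.37 and 1 at 12 h, and 1 and 0.98 at 24 h.

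Split by allele, the loss in read count that lasted to 24 h was that of B6. B6 reads of Firre changed by -1.01 after 8 h (SE 0.16, edgeR adjusted p = 0.032), by -2.01 after 12 h (SE 0.18, adjusted p = 3.3e-05) and by -2.32 after 24 h (SE 0.14, adjusted p = 6.5e-08), where 0.0134%, 0.0669% and 0.669% of 14944 genes were called lower. The 8 h call was lost without either 24 h library (adjusted p 0.29 and 0.4) and with DESeq2 (1). The level attributed to B6, its share times the RPKM, was 11.8 and 12.9 RPKM at 0 h and 2.03 and 2.05 RPKM at 24 h.

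No change of the Cast allele passed the threshold at any time. The 0 h libraries had 12.3 and 13.7 RPKM of Cast RNA, those of 0.5, 1, 2 and 4 h had 9.28, 10.97, 12.2 and 10.7 RPKM, those of 8 and 12 h had 7.49 and 8.87 RPKM, and those of 24 h had 9.86 and 10.9 RPKM. The 8 h library was the lowest, and all later libraries lay below both 0 h libraries, though the values in between had no steady order. At 24 h the mean Cast level was 80.2% of that at 0 h. The read count given next does not show this fall, and why the 2 measures differ was not tested. Relative to autosomal genes the difference in Cast read count was -0.49 after 0.5 h (SE 0.15, edgeR adjusted p = 0.78), -0.53 after 8 h (SE 0.15, edgeR adjusted p = 0.99), -0.52 after 12 h (SE 0.15, adjusted p = 1) and -0.01 after 24 h (SE 0.12, adjusted p = 0.99), with 0% of 14810 genes called lower at 8, 12 and 24 h and, at 24 h, 536 lower and 407 higher at an unadjusted p under 0.05. Without the 0 h replicate A library the 8 h value was -0.60 (adjusted p = 0.028).

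**Figure D3:**
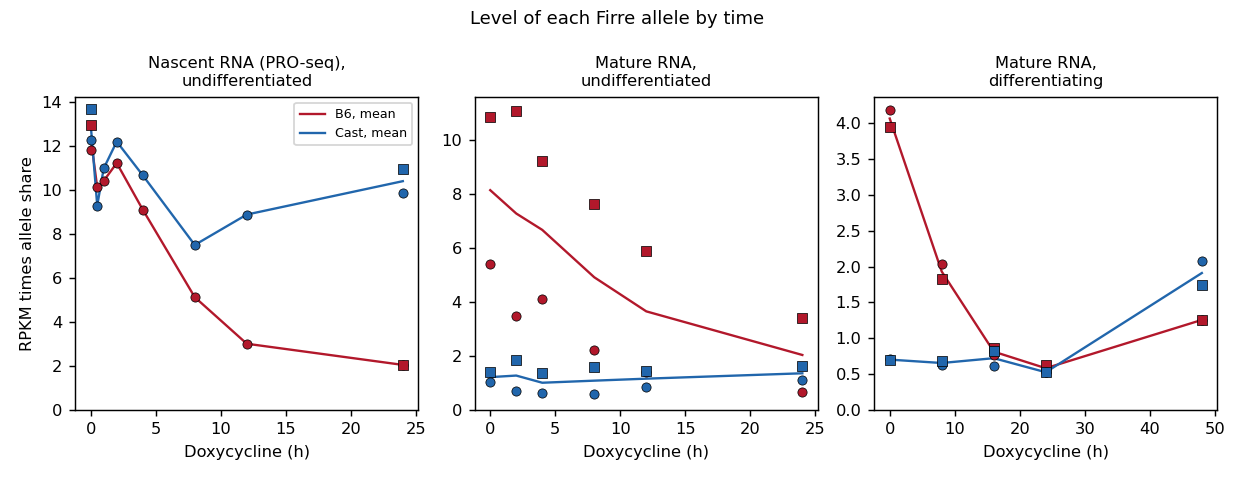
Firre level attributed to each allele (RPKM times B6 or Cast share, linear axes from 0 with a separate scale per panel) against hours of doxycycline; points are libraries (circles replicate 1 or A, squares replicate 2 or B) and lines join means. B6 (red) ends each course below its 0 h libraries, after a low at 24 h in differentiating cells; there Cast (blue) is highest at 48 h, with both libraries at 1.74 RPKM or above.

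In mature RNA of undifferentiated cells the B6 share was lower mostly after 8 h, and unequally in the 2 replicates. At 0, 2, 4, 8, 12 and 24 h, in that order, replicate 1 had 83.9, 83.3, 86.5, 79.1, 62.3 and 37.8%. Replicate 2 had 88.7, 85.8, 87.1, 82.9, 80.2 and 67.8% at the same times. Replicate 2 was higher throughout, by 0.56 points at 4 h and by 30.0 points at 24 h, when its X-linked median was 9.16 points higher as well.

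Replicate 2 also held more Firre RNA at every time. Over the same times its total was 12.2, 12.9, 10.6, 9.17, 7.33 and 5.02 RPKM, against 6.44, 4.16, 4.74, 2.79, 2.26 and 1.74 RPKM in replicate 1. The ratio of the replicates ran from 1.90 (0 h) to 3.29 (8 h). Only 167 of 10382 genes (1.61%) were over 1.5-fold higher in replicate 2 at all 6 times, and among 309 X-linked genes these were Firre and Nxt2, which encodes a nuclear RNA export factor.

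The 24 h change in mature B6:Cast was -2.42 (log2 odds, SE 0.58, limma adjusted p = 0.16) in undifferentiated cells and did not pass the threshold, while 0.852% of 9854 genes and 28.6% of 290 X-linked genes were called lower. With a replicate block it was -2.42 (SE 0.41, adjusted p = 0.046). Without the 24 h replicate 2 library it was -3.30 (adjusted p = 0.025), and without the 24 h replicate 1 library -1.54. Within replicate 1 the change was -3.02 and within replicate 2 -1.82. The difference in total level was -1.42 (log2 of RPKM + 0.5, SE 0.81, limma adjusted p = 1), with 0% of genes called lower by limma and 55 of 11612 lower at an unadjusted p under 0.05. With the replicate block its SE was 0.19 and its adjusted p 0.35; within replicate 1 the RPKM was 3.698-fold lower and within replicate 2 2.44-fold. The Cast level was 1.04 and 1.38 RPKM at 0 h and 1.08 and 1.62 RPKM at 24 h, and B6 went from 5.41 and 10.8 to 0.658 and 3.40 RPKM. The B6 difference was -1.95 (log2 of RPKM + 0.5, SE 0.88, limma adjusted p = 1; with the block SE 0.23, adjusted p = 0.085), and neither allele passed the threshold with or without the block.

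In the mean, the distance between the assays lasted through the course. The mean mature share of undifferentiated cells stood above the nascent one by 36.6, 40.8, 40.4, 46.0 and 36.3 points at 2, 4, 8, 12 and 24 h, in that order. The ratio of the B6:Cast odds was 5.68 at 24 h, against 6.61 at 0 h. The mature replicates at 24 h were far apart, at 37.8 and 67.8% against a nascent mean of 16.4%. The 24 h distance thus holds for the mean only, and the 2 ratios do not differ beyond their spread.

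Differentiating cells also lost B6 RNA, with little spread between libraries. From the 0 h shares of 85.5 and 85.1%, the pair of libraries went to 76.7 and 72.6% after 8 h, 55.5 and 50.9% after 16 h, 50.1 and 54.8% after 24 h, and 37.5 and 42.1% after 48 h. The 16 and 24 h libraries overlapped, and every other step was larger than the gap within a pair. The log2 change in B6:Cast was -0.93 after 8 h (SE 0.16, limma adjusted p = 0.024), -2.28 after 16 h (adjusted p = 0.00035), -2.32 after 24 h (adjusted p = 0.00019) and -3.05 after 48 h (adjusted p = 4.6e-05, an 8.26-fold lower ratio). Of all 10225 genes 3.31%, 6.43%, 9.04% and 12.4% were called lower at these times, and of 285 X-linked genes 33%, 80.4%, 90.9% and 93.7%, so that the call itself was common on the X. The size was less so, with 17 X-linked genes lower than Firre at 48 h and a median of -1.51. The 8 h call was lost without either 0 h library (adjusted p 0.11 and 0.092).

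The total level of Firre dipped and came back. The pair of libraries had 4.899 and 4.64 RPKM before treatment, 2.66 and 2.51 after 8 h, 1.38 and 1.69 after 16 h, 1.06 and 1.15 after 24 h, and 3.33 and 3.00 after 48 h. The 5 groups did not overlap, and the order from high to low was 0, 48, 8, 16 and 24 h. The change was -1.72 at 24 h (log2 of RPKM + 0.5, SE 0.08, limma adjusted p = 1.2e-09) and -0.52 at 48 h (adjusted p = 3.6e-05), where 38.8% and 39.9% of 12220 genes were called lower. From 24 to 48 h the total rose by 1.19 (SE 0.08, limma adjusted p = 3.3e-08); 44% of all genes and 38.7% of X-linked genes rose too, but 344 of 357 X-linked genes had a lower value than Firre.

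The return at 48 h came from both alleles, and more from Cast. Cast RNA was at 0.709 and 0.692 RPKM at 0 h, 0.528 and 0.521 RPKM at 24 h, and 2.08 and 1.74 RPKM at 48 h, 2.73 times its 0 h mean. Both 48 h libraries were above every other Cast value of the course. The Cast level rose by 1.23 from 24 to 48 h (SE 0.10, limma adjusted p = 1.5e-06, with 36.9% of all genes called higher) and was 1.00 above 0 h (adjusted p = 3.9e-06, 38% of genes higher), with 259 of 285 X-linked genes lower than Firre in the latter comparison. B6 RNA was at 4.19 and 3.94 RPKM at 0 h, 0.530 and 0.631 at 24 h, and 1.25 and 1.26 at 48 h. It rose by 0.70 from 24 to 48 h (SE 0.08, limma adjusted p = 1.4e-05, 37.5% of genes higher). The B6:Cast ratio fell by 0.73 over that step (SE 0.16, limma adjusted p = 0.038, 4.91% of genes lower), a call lost without any 1 library (adjusted p 0.07 to 0.17). The totals and the allele levels share their 0 h libraries and are not independent of each other.

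The 2 mature courses were compared at their shared times. At 24 h the change in B6:Cast was 0.10 higher in differentiating than in undifferentiated cells (log2 odds, SE 0.66, limma interaction adjusted p = 0.97), where 1.61% of 9537 genes were called higher. The change in total level was 0.30 lower, or -0.30 (SE 0.91, adjusted p = 0.97), with 4.75% of 11350 genes called lower. The 95% normal interval of the B6:Cast difference ran from -1.19 to 1.38 and that of the total from -2.07 to 1.48. The courses carry different library prefixes in their titles, so differentiation and library batch cannot be told apart.

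The genes that lie near Firre were set beside it. Firre has no neighbour with many nascent reads close by: of 22 genes within 2 Mb of either end, 8 had a mean of at least 20 allele-assigned nascent reads, the nearest of them, Usp26, 1118638 bases away. At 24 h 3 of the 8 were called lower in nascent B6:Cast, against 30% of X-linked genes. These were Gpc4 (-2.16, SE 0.22, edgeR adjusted p = 2.2e-07) and Gpc3 (-2.18, SE 0.17, adjusted p = 2.6e-10), which encode glypicans, heparan sulphate proteoglycans of the cell surface, and the zinc finger gene Zfp280c (-2.08, SE 0.28, adjusted p = 2e-05). The changes of the other 5 ranged from -1.78 at Usp26 to -0.68 at A630012P03Rik, with larger errors. In differentiating cells 6 of 6 tested neighbours were called lower at 48 h, against 93.7% of X-linked genes, and in undifferentiated cells 2 of 5, Gpc4 and the RNA-binding protein gene Rbmx2, at 24 h, against 28.6% of X-linked genes. In mature RNA at 0 h the measured neighbours with a mean RPKM over 1 had B6 shares of 45.6% (Slc25a14) to 59.0% (Gpc4) in undifferentiated cells, all far below Firre.

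**Figure D4:**
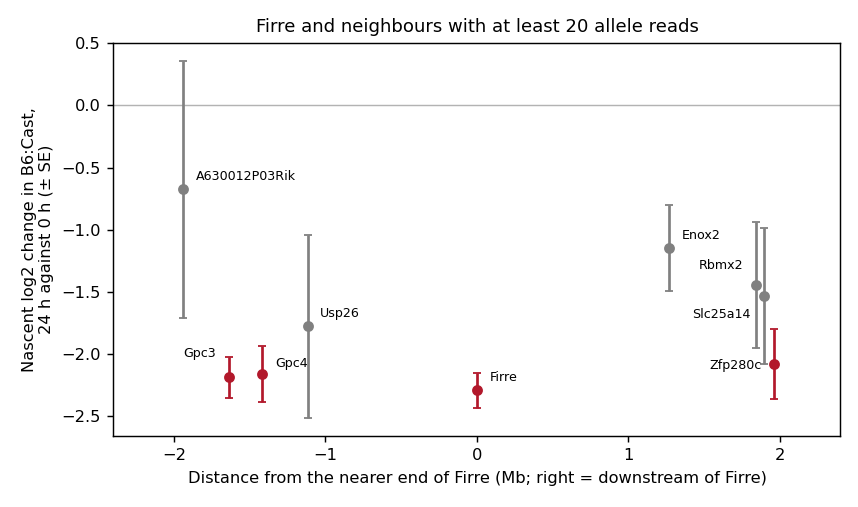
Log2 change in nascent B6:Cast from 0 to 24 h (± SE) for Firre and the 8 neighbours with at least 20 allele reads, against distance in Mb from the nearer end of Firre, with genes downstream of Firre to the right. Red points passed the threshold; Firre and the nearby called genes lie between -2.29 and -2.08.

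The X-linked genes whose B6 share moved most like that of Firre were found from the 16 group means after 0 h, each course set to its own 0 h mean. Among 224 genes the root mean square difference was smallest for Gpc4 (3.20 points), for Fgd1, an exchange factor of the GTPase Cdc42 (3.57), for the ETS transcription factor gene Elf4 (4.02), for Phka1, a subunit of phosphorylase kinase (4.88), and for Zfp280c (5.01). The median was 11.6 points. These genes began elsewhere in mature RNA: Gpc4 went from 59.0 to 25.1% in undifferentiated and from 57.5 to 14.2% in differentiating cells. In mature RNA Firre thus moved a number of points similar to Gpc4, at a much higher share. In nascent RNA Firre began lower, at 48.8% against 56.6% for Gpc4. The undifferentiated mature means of Firre join 2 replicates that fell unequally.

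In total level, the highest Pearson correlations with Firre over the 32 libraries, each course centred on its own mean, were those of Diaph2, a formin (r = 0.90), the actin-linked LIM gene Zfp185 (0.88), Mbtps2, the site-2 protease (0.87), the ectodysplasin receptor gene Eda2r (0.86) and the splicing protein gene Rbmx (0.86), among 9915 genes. All 5 are X-linked. The libraries of a course share a scaling, and the undifferentiated ones share the gap between replicates. Within courses r for Diaph2 was 0.77 in 10 PRO-seq, 0.95 in 12 undifferentiated and 0.89 in 10 differentiating libraries.

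Genes known to work with Firre were taken as lists. Of 7 partner genes, for hnRNPU, CTCF and the cohesin subunits Rad21, Smc1a, Smc3, Stag1 and Stag2, 0 were called in total at 24 h in nascent RNA (edgeR) or in undifferentiated mature RNA (limma), where 0.00593% and 0% of genes were called lower. At an unadjusted p under 0.05 the counts were 2, Hnrnpu (0.65) and Rad21 (0.40), both higher, and 0. In undifferentiated mature RNA Stag2 was at 0.01 to 0.04 RPKM in each group mean but that of 2 h (3.14), which holds the library that stood apart, so its 24 h value says nothing of a change. In differentiating cells 3 of 6 tested were called lower at 24 h, against 38.8% of all genes, with a median of -0.27, and 6 of 6 at 48 h, against 39.9%, with a median of -0.53 against 0.03 over all genes. Hnrnpu fell by 0.51 (SE 0.06, limma adjusted p = 6e-06), Ctcf by 0.39 (SE 0.03, adjusted p = 3.3e-07) and Stag1 by 1.09 (SE 0.06, adjusted p = 4.9e-09). Smc1a is X-linked, and its total fell by 1.00 (SE 0.08, limma adjusted p = 2.5e-07). Its B6:Cast ratio fell by 1.32 (SE 0.07, limma adjusted p = 4.6e-05), where 93.7% of X-linked genes were called lower. Firre itself, at -0.52, was close to that median. Of the 5 genes on other chromosomes described as nuclear neighbours of the Firre locus, 3 were tested in mature RNA at 48 h: the mitochondrial carrier gene Slc25a12 (-0.32) and the stress transcription factor gene Atf4 (-0.20) fell, and the translation elongation factor gene Eef1a1 (0.23) rose, against 39.9% of all genes called lower and 44.4% called higher. At 24 h the first and last of these stood the other way, Slc25a12 higher (0.71, limma adjusted p = 7.4e-09) and Eef1a1 lower (-0.10, adjusted p = 0.019), while Atf4 was lower at both times (-0.30 at 24 h). In nascent RNA 0 of the 4 tested were called at 24 h by edgeR, where 1 of 16870 genes was called lower and 1 higher. At an unadjusted p under 0.05 the count was 0, against 759 lower and 543 higher over all genes.

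The Dxz4 transcript, annotated as 4933407K13Rik, was another X-linked tandem repeat locus on the lists. In nascent RNA its B6:Cast ratio fell by 2.36 at 24 h (SE 0.45, edgeR adjusted p = 0.0024), close to the -2.29 of Firre. Its total in differentiating RNA fell by 0.58 at 24 h (SE 0.06, limma adjusted p = 1.4e-06) and by 0.82 at 48 h (SE 0.06, adjusted p = 3.4e-08), so it did not share the higher 48 h level of Firre. Its mature RNA was at 1.15 RPKM or below in each group of differentiating cells, under the filter for allele shares.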

How the data were processed

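The deposited PRO-seq table holds B6, Cast and summed read counts, the B6 fraction of these, and RPKM. The mature RNA tables the authors deposited hold this fraction and RPKM but no counts. Per the submitters' processing notes the build is mm10 and the tools were HTSeq 0.6.1, TopHat2 2.1.0, Bowtie 1.0.0, cutadapt 1.8.2 and SAMtools; the sources used here give no settings. Nascent counts were tested with edgeR 4.0.16 (quasi-likelihood, robust): library, allele and allele by time with genes kept from 20 allele reads on average, and totals or single alleles with TMM and filterByExpr, the single alleles with TMM factors from autosomal genes. All 10 libraries entered, with the spread estimated from the 0 and 24 h replicates, which the single libraries were assumed to share. For mature RNA, limma 3.58.1 with trend and robust options was used on the log2 odds of the share with a pseudocount of 0.01 (genes with a share in all libraries and an average RPKM of 1 or more) and on log2(RPKM + 0.5) (mean RPKM of at least 0.5), which understates the change of low genes, with all libraries of a course. Allele levels in mature RNA were the share times the RPKM, so they rest on how reads were given to alleles. P-values are two-sided and adjusted over the whole table by Benjamini-Hochberg, and 0.05 is the threshold. Mature depth was estimated from the RPKM steps of low genes; 84.8 to 92.3% of those checked gave whole reads within 0.02.

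Firre, the lists and the naming rule were chosen with earlier results of these data known. Named genes were Firre, neighbours within 2 Mb, the 5 most like it in share and in level, the 5 X-linked genes with the largest 0 h difference, and list members. Nxt2 and the extremes of ranges were named after their values were seen, and the allele levels of mature RNA and the step from 24 to 48 h were added then. In the titles of the undifferentiated mature libraries, consecutive numbers run through the course once for each replicate, and same-replicate deviations from the group means correlated in all 15 pairs (0.33 to 0.90), so a replicate block is given there. In differentiating libraries the 10 pairs gave -0.12 to 0.25. The tests were run on simulated counts or values with 4-fold changes in 100 genes. Of these, 93% were recovered in nascent B6:Cast, and 95% and 94% in mature B6:Cast (undifferentiated and differentiating). In mature totals 66% and 100% were recovered. The simulated libraries varied independently, and nascent counts had the same dispersion for every gene. Such figures hold for 4-fold changes only. They cover neither nascent totals nor the correlated replicates of undifferentiated mature RNA. DESeq2 1.42.0 was an alternative.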

Additional observations from a re-analysis of the deposited data

How the results depend on the processing

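Over 72 comparisons of Firre, 526 alternative settings left 480 on the same side of the threshold with the same direction, 11 lost a call, 14 gained one and 21, all of uncalled values, changed sign. The nascent 24 h fall in B6:Cast, the nascent B6 reads at 24 h, and the differentiating changes at 48 h against 0 h kept direction and call throughout. Without a filter on low counts the nascent total at 24 h was -0.71 with a call and the nascent Cast change 0.0030. With limma on log2(RPKM + 0.5) the nascent total at 24 h was -0.997 (SE 0.15), without a call and larger than by counts. With the replicate block the undifferentiated B6:Cast change at 24 h was -2.42 with a call and the differentiating step from 24 to 48 h -0.73 without one; the block changed no other call. Leaving out 1 library at a time gave these ranges: nascent total at 24 h -0.78 to -0.65; nascent Cast reads at 24 h -0.0912 to 0.0796 and at 2 h -0.0802 to 0.0665; nascent B6:Cast at 1 h -0.0200 to 0.0010; undifferentiated B6:Cast at 24 h -3.30 to -1.54, at 2 h -0.49 to 0.0642 and at 4 h -0.23 to 0.32; undifferentiated total at 24 h -2.07 to -0.77, at 2 h -0.69 to 0.19 and at 4 h -0.74 to 0.13; undifferentiated B6 level at 24 h -2.82 to -1.07, at 2 h -0.74 to 0.20 and at 4 h -0.76 to 0.18; undifferentiated Cast level at 24 h -0.10 to 0.32, at 2 h -0.17 to 0.12 and at 12 h -0.21 to 0.0814; the differentiating B6:Cast step from 24 to 48 h -0.86 to -0.59. For the difference between courses the ranges were -0.78 to 0.98 for B6:Cast at 24 h, -0.95 to 0.35 for the total at 24 h and -0.47 to 0.40 for the total at 8 h. The cause was not tested, except that leaving out libraries lowers the number of samples.

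Counts of genes called over the whole tables moved more: 27 to 153 against 113 for nascent B6:Cast at 24 h, 1 to 1259 against 2 for nascent totals, 0 to 165 against 86 for undifferentiated B6:Cast, 1383 to 2446 against 2338 for differentiating B6:Cast at 48 h, and, between the courses at 24 h, 153 (without differentiating 0 h replicate 2, and fewer still without replicate 1) to 520 against 315 for B6:Cast and 722 to 2556 against 1129 for totals. The undifferentiated replicates limit what mature RNA shows there, and shares in mature RNA have no read counts behind them, so no interval was given.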
